A study of Mus musculus with 18 samples.

Results

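The clustered protocadherin genes were described in endothelial cells of the mouse cortex. All genes of the deposited table were taken whose symbol is Pcdha, Pcdhb, Pcdhga, Pcdhgb, Pcdhgc or Pcdhac followed by a number, which gave 56 of 21638 genes. They form 3 neighbouring clusters on the plus strand of chromosome 18, between 36930184 and 37841873 (GRCm38): 13 genes of the alpha cluster (11 alpha genes with the C-type genes Pcdhac1 and Pcdhac2), 22 genes of the beta cluster, and 21 genes of the gamma cluster (12 gamma A, 6 gamma B and the C-type genes Pcdhgc3, Pcdhgc4 and Pcdhgc5). Pcdha10 and Pcdhgb8 were not analysed here.

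Clustered protocadherins are cadherin-like adhesion proteins that bind the same isoform on a neighbouring cell, and they are known above all from neurons, where each cell picks a small set of isoforms that serves as its surface identity. Each alpha and gamma gene has its own promoter and a large variable exon, which codes for the extracellular, transmembrane and proximal cytoplasmic parts and is spliced to 3 constant exons common to its whole cluster. Beta genes are single-exon genes with no constant exons. Promoter choice in neurons involves DNA methylation, the insulator protein CTCF and cohesin, and the clusters are a textbook target of the chromatin protein SMCHD1.

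The 18 libraries came from cells sorted for CD31 and against CD41 and CD45 and were made with an ultra-low-input mRNA kit (SMART-Seq V4 PLUS). There were 6 groups of 3 libraries: sham ipsilateral and sham contralateral from wild-type mice without the stroke surgery, MCAO ipsilateral and MCAO contralateral from wild-type mice after middle cerebral artery occlusion (a stroke model), and MCAO Hdac2 ECKO ipsilateral and MCAO Ezh2 ECKO ipsilateral from occluded mice with an endothelial deletion of Hdac2 (a histone deacetylase) or Ezh2 (the methyltransferase of the Polycomb complex PRC2). The deletions used floxed alleles and a tamoxifen-inducible Cre driven by the endothelial Cdh5 promoter, all libraries carry the label tamoxifen at 75 mg/kg, and the cells were taken on day 7. Nothing in the labels says whether the 3 libraries of a group came from separate mice, so the p-values below measure the spread between these libraries, which may be partly technical.

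Totals ran from 25791401 to 57576255 counts per library. The summed level of 12 endothelial markers was 12321 to 27623 CPM (counts per 1000000, on library totals scaled with the TMM method), against 51.2 to 294 CPM for 12 neuronal markers and 39.9 to 123 CPM for 10 astrocyte markers. In the libraries labelled Hdac2 ECKO the Hdac2 level was 57.6, 85.0 and 87.9 CPM, against 84.4, 68.2 and 96.1 CPM in MCAO ipsilateral. In those labelled Ezh2 ECKO the Ezh2 level was 12.0, 19.7 and 8.41 CPM, against 4.45, 7.02 and 7.85 CPM. Neither targeted gene passed the test, and a count over the whole gene cannot show the loss of a floxed exon. MCAO contralateral replicate 1 and MCAO Ezh2 ECKO ipsilateral replicate 2 stood apart: 1464 odorant and vomeronasal receptor genes, which endothelial cells are not known to use, summed to 1883 and 2077 CPM of the unscaled total there, against 152 to 714 CPM in the other 16 libraries.

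The deposited counts of the gamma cluster did not separate its members. The 21 gamma genes share 2116 bases of exon in the annotation (GENCODE M21: chr18:37825021-37825079, chr18:37833265-37833353 and chr18:37839903-37841870), and in each library between 13 and 20 of the 21 members lay within 10% of the lowest. In MCAO ipsilateral replicate 2 the lowest member stood at 2095 and the median member at 2101. In MCAO Ezh2 ECKO ipsilateral replicate 2 the lowest stood at 180 and the median at 190. This is the pattern of reads on the constant exons entered once for every gene. A plain sum over the cluster counts such reads 21 times: it reached 150 to 1035 CPM per library, and 71.2% to 98.2% of it was the repeated part.

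**Figure D1:**
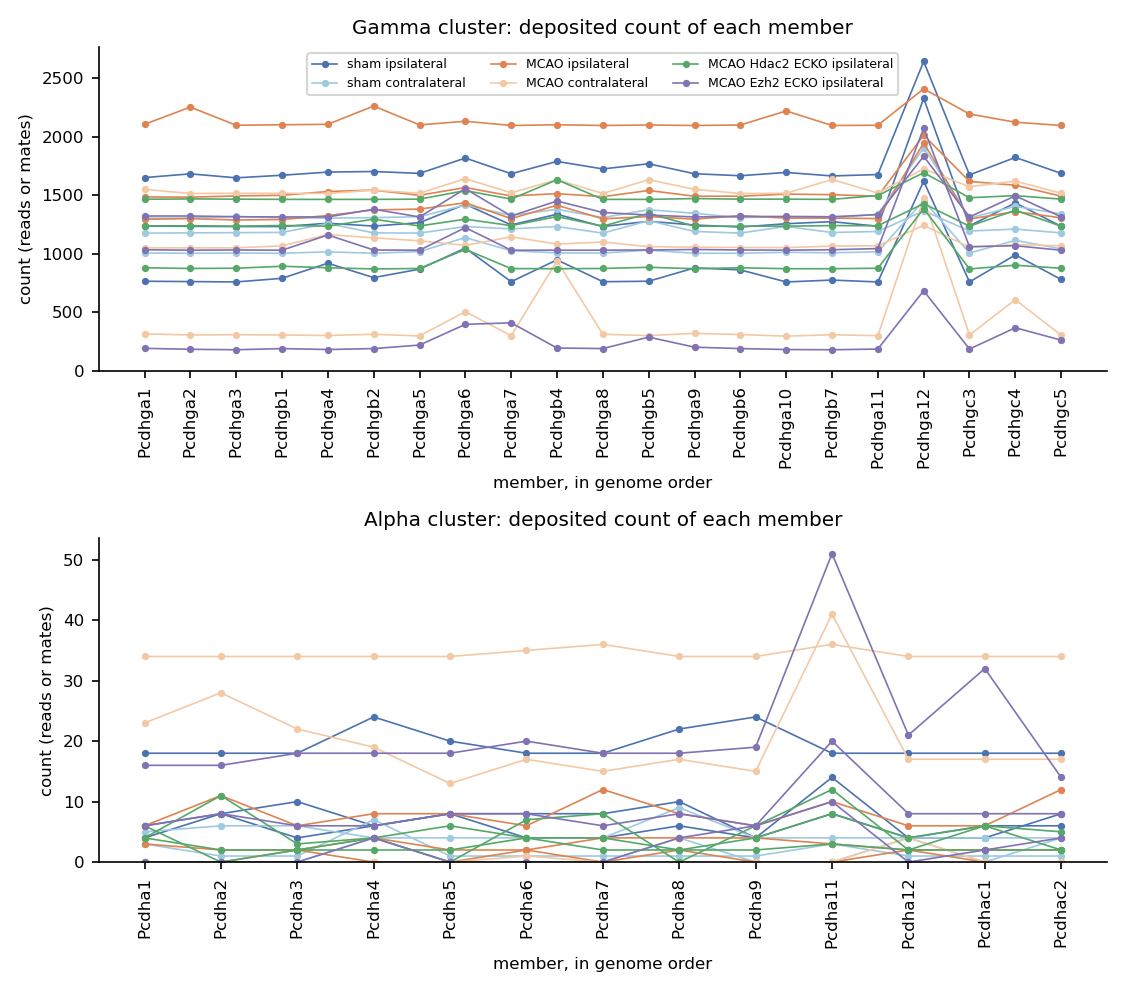
Deposited counts of the 21 gamma members (top) and 13 alpha members (bottom) in genome order, 1 line per library, coloured by group. Most points of each gamma line lie near the level of the shared exons, with rises at Pcdhga12, Pcdhga6, Pcdhgb4 and Pcdhgc4; the alpha lines lie near 0, at 51 counts or fewer.

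The lowest count of the cluster in a library was therefore taken as the shared part, counted once, and what a member had above it as its own reads. This gives an upper limit for the part shared by the whole cluster. Own reads are not a strict lower limit for single genes. They keep reads on exon shared by only some members, such as Pcdhgb1 and Pcdhga4, counted for each of those. On this footing, the shared gamma exons had 34.0, 18.1 and 32.9 CPM in sham ipsilateral and 33.3, 33.8 and 28.2 CPM in sham contralateral. They had 29.4, 46.2 and 35.5 CPM in MCAO ipsilateral and 9.29, 33.0 and 22.5 CPM in MCAO contralateral. In the deletions they had 48.4, 37.2 and 25.6 CPM (Hdac2 ECKO) and 35.4, 5.12 and 28.8 CPM (Ezh2 ECKO). The groups overlapped throughout, and both lowest values came from the libraries with the most receptor reads. With the shared part as a single row among the genes of an edgeR quasi-likelihood fit, Ezh2 ECKO against MCAO ipsilateral gave -0.68 ± 0.55 on the log2 scale (SE; adjusted p = 0.478) and MCAO against sham ipsilateral gave 0.39 ± 0.54 (adjusted p = 0.868). The constant gamma exons were thus read in every library, at 85.1 to 990 counts per kilobase, whereas the 95th percentile of the receptor genes was 1.3 to 18.4 counts per kilobase.

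Among gamma members, Pcdhga12, the last gamma A gene before the C-type genes (chr18:37765580-37841873), had the most own reads in all 18 libraries, from 190 to 1176. Its own level was 20.5, 20.5 and 29.4 CPM in sham ipsilateral, 15.4, 15.1 and 4.56 CPM in sham contralateral, 15.0, 6.91 and 12.7 CPM in MCAO ipsilateral, and 14.0, 14.3 and 29.1 CPM in Ezh2 ECKO. Sham contralateral overlapped MCAO ipsilateral. Each sham ipsilateral library lay above each MCAO ipsilateral one, but the difference did not pass the test (log2 fold change -1.03 ± 0.71, adjusted p = 0.772), and the library with the most own reads of the gene, MCAO contralateral replicate 1, was one of those set apart. Per kilobase of own exon, Pcdhga12 averaged 3.32 CPM over the 18 libraries. Pcdhga6 followed at 1.43, then Pcdhgc4 at 0.902, Pcdhgb4 at 0.821 and Pcdhga4 at 0.598 CPM per kilobase. The Pcdhga4 value may be too high, since its own exon of 1570 bases leaves out bases shared with Pcdhgb1 while its reads include them. Pcdhga6, Pcdhga12 and Pcdhgc4 had at least 10 own reads in every library. Pcdhgb5 had 0 to 120 own reads. Pcdhgc3, a C-type gene that many cell types use, had a median of 9 own reads and a highest count of 134.

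Pcdhgb4 shows how uneven the own reads were within a group. It had 136, 15 and 0 own reads in the 3 Ezh2 ECKO libraries, 168, 82 and 2 in the 3 Hdac2 ECKO libraries, and 643, 118 and 32 in the 3 MCAO contralateral libraries. Summed over the 21 members, own gamma reads stood at 43.6, 52.1 and 50.6 CPM in sham ipsilateral, 32.1, 21.4 and 28.2 CPM in MCAO ipsilateral, 19.0, 20.1 and 24.2 CPM in Hdac2 ECKO, and 33.8, 42.1 and 41.0 CPM in Ezh2 ECKO. Sham ipsilateral was highest of these 4 ipsilateral groups and did not overlap them. Own gamma reads stood at 29.4, 28.2 and 16.4 CPM in sham contralateral and 78.9, 21.3 and 16.5 CPM in MCAO contralateral, whose replicate 1 was above every sham ipsilateral library. Receptor reads in the same 4 groups were 284, 714 and 462, then 241, 154 and 296, then 198, 324 and 637, and then 268, 2077 and 599 CPM of the unscaled total. Their part in the own gamma reads was not tested.

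The balance between variable and constant exons also set 2 libraries apart. Own reads per kilobase, summed over the gamma members, came to 23.1% to 189% of the shared exons' reads per kilobase in 16 libraries. They came to 478% in MCAO contralateral replicate 1 and 486% in MCAO Ezh2 ECKO ipsilateral replicate 2, the libraries with the most receptor reads.

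The alpha cluster was barely read. Its 13 genes share 2860 bases of exon, and the shared part was 0 to 34 counts per library. Counting it once and adding own reads, the whole cluster held 5 to 111 counts, or 0.109 to 3.30 CPM. Own alpha reads per kilobase did not exceed the 95th percentile of the receptor genes for any member in any library. The shared alpha exons did so in 2 of 18 libraries, MCAO contralateral replicate 3 (11.9 against 1.3 counts per kilobase) and sham ipsilateral replicate 1 (6.29 against 4.3). The largest own count, 37 for Pcdha11, was in MCAO Ezh2 ECKO ipsilateral replicate 2. The annotated Pcdha11 feature is also the longest of the cluster, with 7174 own bases against 2346 to 3028 for the others. In the annotation its symbol covers more than a single gene identifier, so its count may not stand for a single gene. Pcdha2, which with Pcdha11 had the highest deposited alpha levels, had at most 15 own reads. A count of 3 per library corresponds to 0.0619 to 0.101 CPM, so differences between alpha genes were not detectable at this depth.

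Beta genes carry no shared constant exons, and their counts differed from gene to gene. Between 16 and 22 of the 22 members had a count above 0 in a library, and 9 to 21 had a count of at least 10. Pcdhb1 and Pcdhb2 had too few reads to be tested, so 54 of the 56 clustered protocadherins were tested among 17094 genes. The summed beta level was 50.3, 56.2 and 58.4 CPM in sham ipsilateral, 31.2, 72.6 and 44.0 CPM in sham contralateral, 41.8, 36.9 and 41.3 CPM in MCAO ipsilateral, and 77.8, 44.6 and 29.0 CPM in MCAO contralateral. It was 39.5, 40.1 and 58.6 CPM in Hdac2 ECKO and 108, 47.1 and 64.9 CPM in Ezh2 ECKO. The sum lay lower in MCAO ipsilateral than in both sham ipsilateral and Ezh2 ECKO, without overlap, while all other pairs of these groups overlapped. Markers of pericytes and smooth muscle summed to 44.2 to 114 CPM in MCAO ipsilateral, 117 to 184 CPM in sham ipsilateral and 31.4 to 176 CPM in Ezh2 ECKO. Markers of microglia and macrophages summed to 86.5 to 92.4, 37 to 44.9 and 56.9 to 67.6 CPM in the same order. Their part in the beta sum was not tested.

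**Figure D2:**
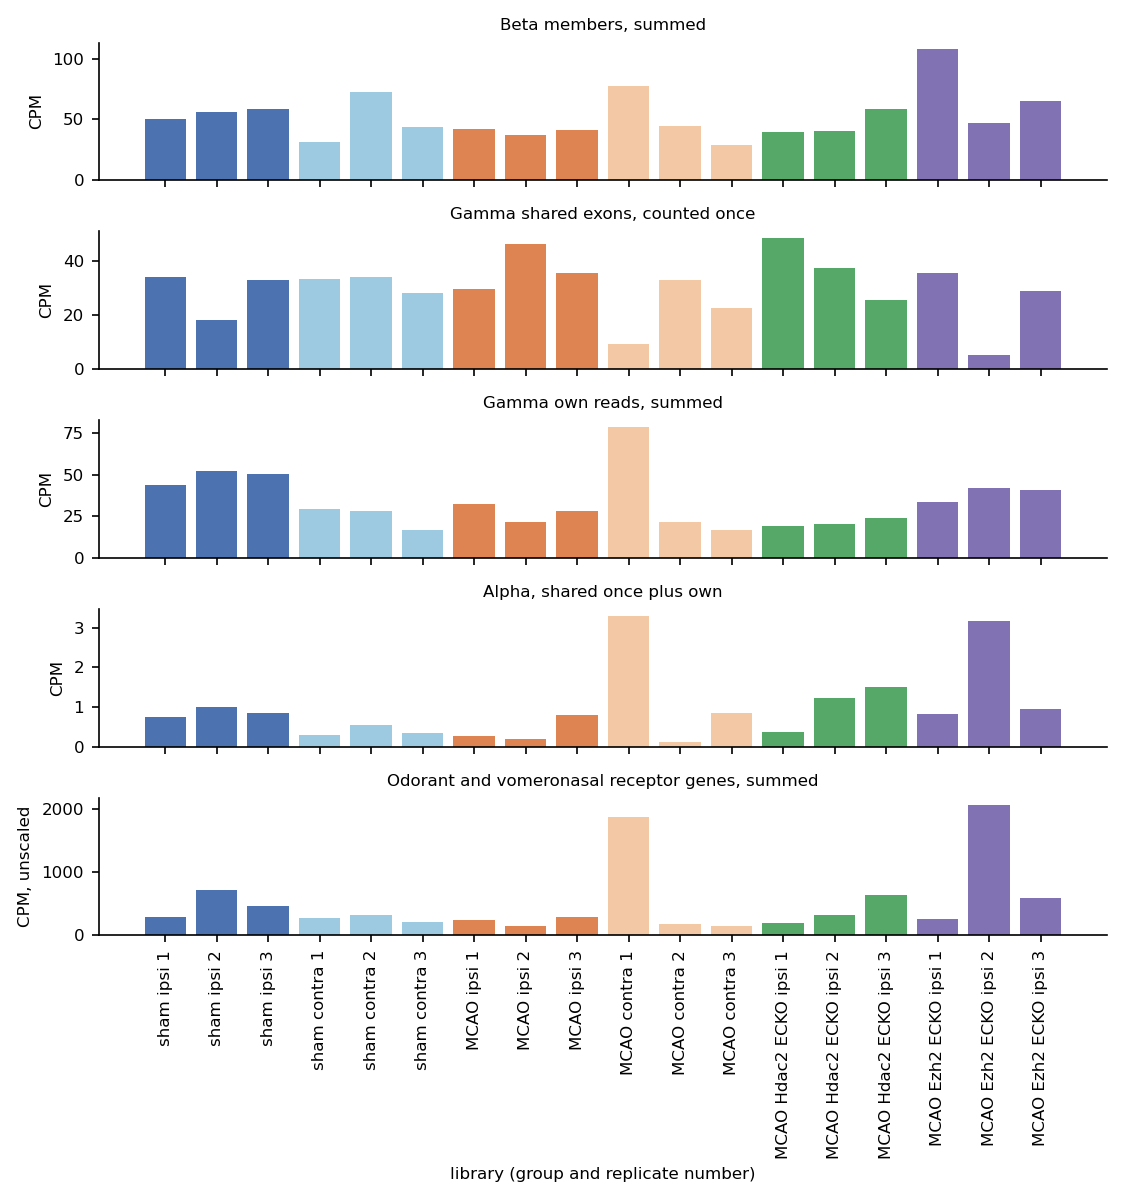
Summed levels per library in CPM: beta members, gamma shared exons counted once, gamma own reads, the alpha cluster, and (in CPM of the unscaled total) 1464 odorant and vomeronasal receptor genes. MCAO contralateral replicate 1 and MCAO Ezh2 ECKO ipsilateral replicate 2 have the highest receptor sums, 1883 and 2077 CPM, and the lowest shared gamma levels, 9.29 and 5.12 CPM.

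Reads on the beta cluster came mostly from its gamma-side end. Pcdhb14 to Pcdhb22, 9 genes that hold 52.3% of the cluster's annotated bases, took 71.8% to 92.3% of the beta counts in every library; this stretch was chosen after the values were seen. Pcdhb17 (chr18:37484795-37489454) was the beta gene with the most counts in 12 of 18 libraries. Its level was 18.0, 11.0 and 13.8 CPM in sham ipsilateral, 8.13, 16.6 and 12.6 CPM in sham contralateral, 13.0, 8.12 and 9.95 CPM in MCAO ipsilateral, and 0.722, 7.23 and 5.33 CPM in MCAO contralateral. In Hdac2 ECKO it was 8.79, 4.57 and 28.0 CPM, and in Ezh2 ECKO 27.2, 15.2 and 1.40 CPM. The sham and MCAO ipsilateral libraries ran from 8.12 to 18.0 CPM. Relative to their level, the libraries of MCAO contralateral and of each deletion group differed more widely.

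Single members stood high in single libraries. The gene with the most beta counts held 18.4% to 47.7% of them, and it was Pcdhb17, Pcdhb14, Pcdhb18, Pcdhb20 or Pcdhb21 depending on the library. Pcdhb21 reached 31.5 CPM and Pcdhb19 14.0 CPM in MCAO contralateral replicate 1, where the other libraries of that group had 2.53 and 1.03 CPM of Pcdhb21 and 0.218 and 0.857 CPM of Pcdhb19. Pcdhb7 stood at 8.34 CPM in sham contralateral replicate 2, against 0.102 and 3.36 CPM in the others. Pcdhb14, Pcdhb16, Pcdhb17 and Pcdhb22 exceeded the 95th percentile of the receptor genes per kilobase in 16 or 17 of 18 libraries. Pcdhb19 did so in 10, Pcdhb15 in 11, Pcdhb20 in 13, and Pcdhb18 and Pcdhb21 in 14 each. Of Pcdhb1 to Pcdhb13, none did so in more than 10, a number that Pcdhb7 and Pcdhb12 reached.

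**Figure D3:**
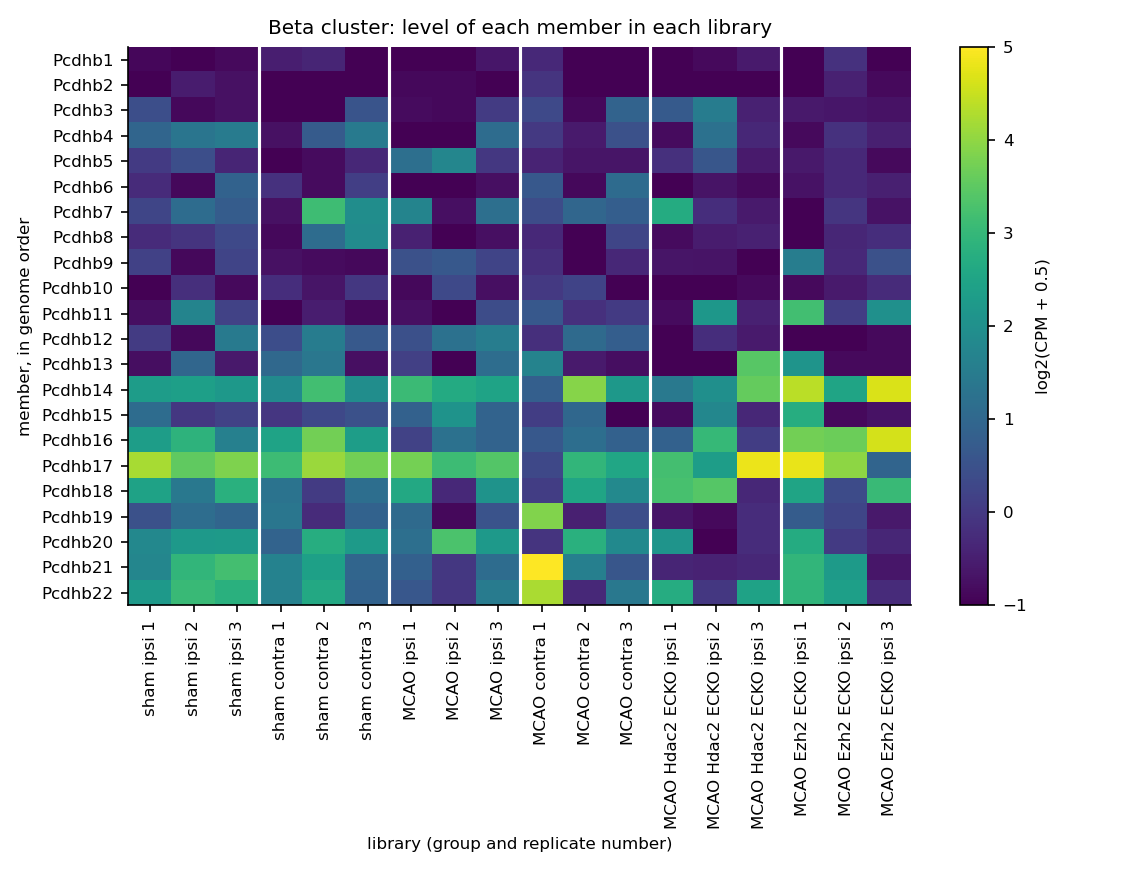
Level of the 22 beta members (rows, in genome order) in the 18 libraries (columns, white lines between groups), as log2(CPM + 0.5). Most of the lower rows, from Pcdhb14 on, are high in most libraries, but Pcdhb15 and Pcdhb19 have medians of only 0.691 and 0.882 CPM. Single bright cells mark single libraries, such as Pcdhb21 at 31.5 CPM in MCAO contralateral replicate 1.

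Stroke alone gave no called clustered protocadherin. In MCAO ipsilateral against sham ipsilateral 0 of 54 members passed an adjusted p under 0.05 in edgeR's quasi-likelihood test (0% of all genes did), 3 had an unadjusted p under 0.05, all beta and lower in MCAO, and 1210 of all 17094 genes did. The median log2 fold change was 0.25 over the members and -0.09 over all genes, and the members' median is carried by the gamma genes, which repeat the same reads. The beta members had a median of -0.48. On the uninjured side, MCAO against sham contralateral also gave 0 calls (0% of all genes), with 1 member and 754 genes at an unadjusted p under 0.05.

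Pcdhb16 (chr18:37477814-37483038, 1 exon) was the member with an unadjusted p under 0.05 in both of these comparisons. It had 4.58, 6.84 and 2.54 CPM in sham ipsilateral and 0.638, 1.85 and 1.39 CPM in MCAO ipsilateral. It had 5.06, 12.8 and 4.56 CPM in sham contralateral and 1.07, 1.74 and 1.33 CPM in MCAO contralateral. All 6 sham libraries lay above all 6 MCAO libraries. The gene was picked by its p-values in these comparisons, and the labels do not say whether both sides came from the same mice. The sides may therefore not be independent. Over all 54 tested members, 4 lay wholly below sham and 2 wholly above on the injured side. On the other side 2 lay wholly below and 1 wholly above, and all of these were beta genes. The share over all genes is not given here. The log2 fold changes were -1.84 ± 0.84 (unadjusted p = 0.0388, adjusted p = 0.682) on the injured side and -2.43 ± 0.85 (unadjusted p = 0.0096, adjusted p = 0.92) on the other, so neither passed.

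Pcdhb21 had 2.85, 7.22 and 8.75 CPM in sham ipsilateral and 1.28, 0.485 and 1.67 CPM in MCAO ipsilateral, with no overlap (log2 fold change -2.45 ± 1.15, adjusted p = 0.699). Its last 455 bases overlap Pcdhb22, so reads there cannot be assigned to either gene. Pcdhb6 had 0.330, 0.0477 and 1.34 CPM in sham ipsilateral and 0, 0 and 0.0957 CPM in MCAO ipsilateral (log2 fold change -4.05 ± 1.79, adjusted p = 0.667), and its groups overlapped. limma's voom test with sample weights called Pcdhb4, Pcdhb6 and Pcdhb21 lower in this comparison, at adjusted p = 0.0222, 0.0353 and 0.0465.

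Between the hemispheres, 0 members were called in MCAO ipsilateral against MCAO contralateral (0% of all genes, 3 members and 526 genes at an unadjusted p under 0.05) and 0 in sham ipsilateral against sham contralateral (0% of all genes, 1 member and 317 genes). Of these 4, Pcdhb5 was the one whose hemispheres did not overlap: 1.78, 2.87 and 0.478 CPM on the injured side and 0.251, 0.131 and 0.129 CPM on the other (log2 fold change 3.31 ± 1.39, adjusted p = 1). Pcdhb11 had 0.0825, 2.76 and 0.642 CPM in sham ipsilateral and 0, 0.202 and 0.048 CPM in sham contralateral, which overlap. Over all 54 tested members, 3 lay wholly higher on the injured side in MCAO, all beta, and 0 wholly lower. In sham, 8 lay wholly higher on the ipsilateral side (5 alpha, 2 C-type and 1 beta) and 0 wholly lower. The share over all genes is not given here, and the alpha genes repeat shared counts.

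The Ezh2 ECKO libraries held the one call. Against MCAO ipsilateral, 1 of 54 members passed, when 1.46% of all genes did. It was Pcdhb16, at 12.7, 12.0 and 23.8 CPM in Ezh2 ECKO against 0.638, 1.85 and 1.39 CPM in MCAO ipsilateral. Each deletion library was above each control library. The means were 16.1 ± 6.61 and 1.29 ± 0.613 CPM (SD, n = 3 each), with a log2 fold change of 3.64 ± 0.90 (edgeR adjusted p = 0.046).

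This call was close to its threshold. It was lost when any 1 of the 6 libraries was left out (adjusted p = 0.0534 to 0.191), with the replicate number as a block (0.0558) and with the receptor share as a covariate (0.112), while the log2 fold change kept between 3.22 and 4.01 in all alternatives. Receptor reads in these libraries were 268, 2077 and 599 CPM in Ezh2 ECKO and 241, 154 and 296 CPM in MCAO ipsilateral, and their part in the Pcdhb16 values was otherwise not tested. DESeq2 gave adjusted p = 9.36e-05. Of 75-base windows in Pcdhb16, 0.291% recur exactly in another annotated gene. Near matches to other genes were not tested.

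Against sham ipsilateral, Pcdhb16 in Ezh2 ECKO did not pass. The libraries did not overlap (4.58, 6.84 and 2.54 CPM in sham), with a log2 fold change of 1.79 ± 0.83 (unadjusted p = 0.0428, adjusted p = 0.752). In Hdac2 ECKO, Pcdhb16 had 1.32, 7.64 and 0.559 CPM, below each Ezh2 ECKO library. The direct test of Hdac2 against Ezh2 ECKO gave -2.34 ± 0.85 (unadjusted p = 0.0116, adjusted p = 0.298). These comparisons share libraries, so the values of Pcdhb16 in them are not independent.

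**Figure D4:**
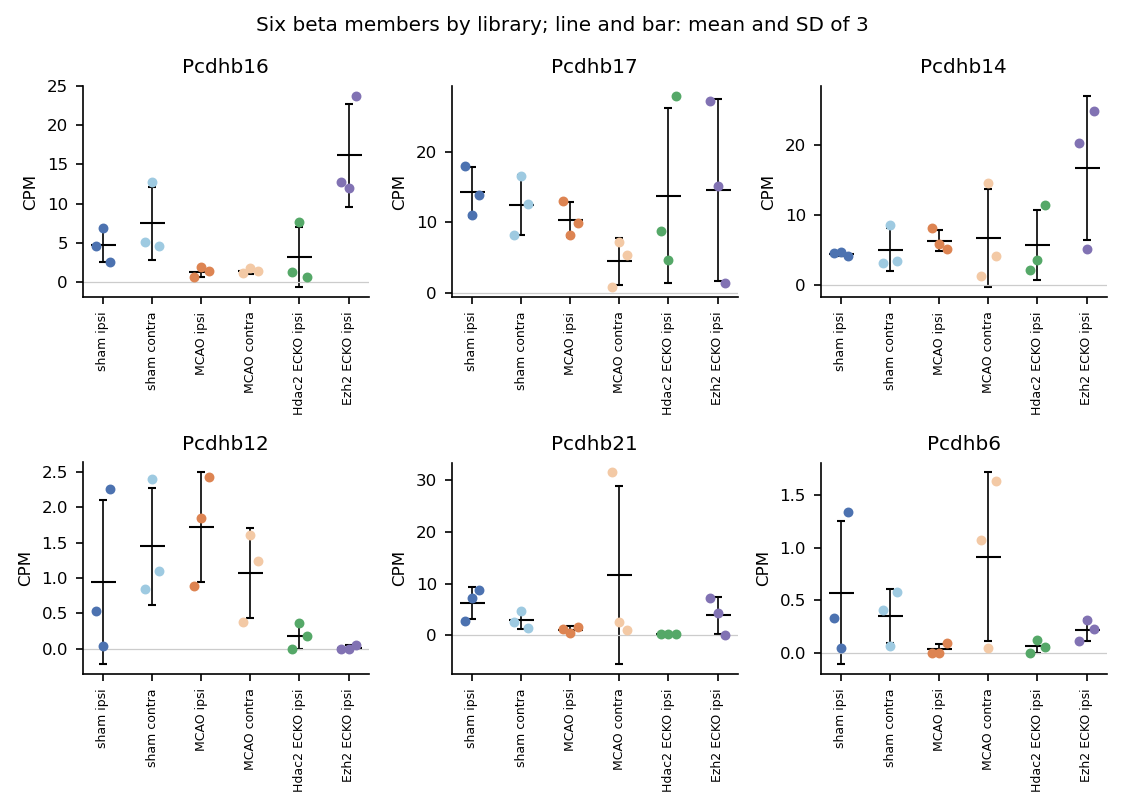
CPM of 6 beta genes in each library (points, 3 per group), with the mean and SD of each group. All 3 Ezh2 ECKO libraries of Pcdhb16 lie above the MCAO ipsilateral ones. Pcdhb17 and Pcdhb14 spread widely within both deletion groups, whereas Pcdhb21 does so within Ezh2 ECKO but not within Hdac2 ECKO.

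Pcdhb12 (chr18:37435621-37438654) had the next smallest p, with lower levels in Ezh2 ECKO. It had 0, 0 and 2 counts in Ezh2 ECKO and 39, 84 and 101 counts in MCAO ipsilateral, that is 0, 0 and 0.0559 CPM against 0.889, 1.85 and 2.42 CPM. Its level in MCAO ipsilateral was 92.4 times that in Ezh2 ECKO, with an exact 95% counting interval of 16.2 to 3680. That interval is on read pairs, since both mates of a pair appear to be counted, taken as 1 pair against 112, and it leaves out the spread between libraries. edgeR gave adjusted p = 0.0645, DESeq2 gave 0.00217 with a call, and a stricter filter (10 counts in 9 or more libraries) gave 0.0481. In Hdac2 ECKO it had 0, 12 and 6 counts, also below each MCAO ipsilateral library (log2 fold change -3.23 ± 1.47, adjusted p = 0.491). In sham ipsilateral it had 26, 2 and 84 counts, a range that reaches down to that of the deletion groups. For this gene, 62.9% of 75-base windows recur in another annotated gene, mostly an antisense gene over the same bases, so its count is uncertain.

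Among the other beta genes, 2 had an unadjusted p under 0.05 with Ezh2 deletion. Pcdhb5 was lower, at 0.162, 0.313 and 0.0559 CPM against 1.78, 2.87 and 0.478 CPM (log2 fold change -3.25 ± 1.39, adjusted p = 0.206). Pcdhb11 was higher on average, at 8.63, 0.569 and 3.52 CPM against 0.0912, 0 and 0.813 CPM, with overlap (3.80 ± 1.76, adjusted p = 0.242). Pcdhb7, with the next smallest p, had 0, 0.455 and 0.112 CPM against 2.74, 0.0883 and 1.77 CPM. Pcdhb14, next to Pcdhb16 but for Pcdhb15, had 20.3, 5.18 and 24.9 CPM in Ezh2 ECKO, 8.07, 5.83 and 5.12 CPM in MCAO ipsilateral, and 4.50, 4.72 and 4.12 CPM in sham ipsilateral (against sham, 1.92 ± 0.83, adjusted p = 0.72). The direction was thus not shared along the cluster: 11 of 20 tested beta genes were higher in Ezh2 ECKO than in MCAO ipsilateral and 9 lower.

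Over all 54 members, 4 lay wholly above MCAO ipsilateral in Ezh2 ECKO, where 13.6% of all genes did, and 2 wholly below, where 15.3% did. At an unadjusted p under 0.05 stood 4 members, all beta, and 3287 of all 17094 genes. The beta median was 0.48 and the alpha median 1.52 on the log2 scale, beside 0.17 over all genes, and the alpha genes repeat shared counts of 14 or fewer per library in these groups. Gamma members ran from -0.73 to -0.20, all with adjusted p between 0.444 and 0.779. When alpha and gamma genes were tested on their own reads, 22 passed the filter, 0 were called in any of the 9 comparisons, and 0 to 4 per comparison had an unadjusted p under 0.05.

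**Figure D5:**
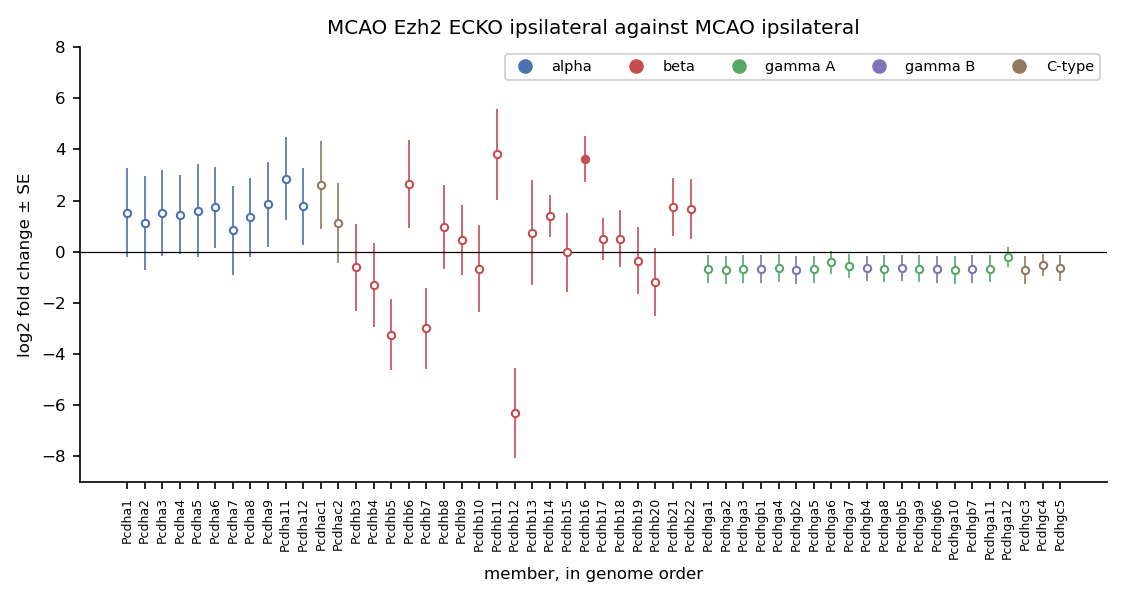
Log2 fold change ± SE of the 54 tested members in MCAO Ezh2 ECKO ipsilateral against MCAO ipsilateral, in genome order and coloured by class; the filled point is the called gene, Pcdhb16. Beta genes scatter from -6.30 to 3.80, while the gamma genes, which repeat the same reads, form a level row between -0.73 and -0.20.

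Ezh2 ECKO libraries also differed in marker levels. Summed over 12 genes, neuronal markers were 51.2 to 86.4 CPM there and 144 to 206 CPM in MCAO ipsilateral. Most of this sum was Stmn2, at 46.4, 57.1 and 77 CPM against 135, 181 and 125 CPM, while Syt1 was higher in Ezh2 ECKO, at 0.377, 1.25 and 0.643 against 0.0912, 0.0441 and 0.144 CPM. Slc32a1, a marker of inhibitory neurons, was at 0 in all 3 Ezh2 ECKO libraries and in 2 of 3 MCAO ipsilateral libraries. Astrocyte markers were 43.7 to 74.3 against 59.4 to 85.4 CPM, and endothelial markers 12321 to 14879 against 19521 to 27623 CPM. Of the endothelial markers, Ly6c1 was lower in Ezh2 ECKO, at 4312, 2614 and 3724 against 16050, 17722 and 9770 CPM. Pecam1 (the gene of the sort marker CD31), Cldn5, Tie1, Egfl7 and Emcn were also lower in each Ezh2 ECKO library than in each MCAO ipsilateral one. Other markers of the list ran the other way, such as the receptor gene Tek, at 697, 706 and 697 CPM in Ezh2 ECKO against 416, 278 and 400 CPM. Kdr, Erg and Slco1a4 were also higher in each Ezh2 ECKO library than in each MCAO ipsilateral one, while Cdh5 and Flt1 overlapped. Blood markers (globin, platelet and leukocyte genes) summed to 93.8 to 701 CPM in Ezh2 ECKO against 38306 to 65480 CPM. The part of these levels in the beta values was not tested. In sorted bulk cells, fewer cells that express a gene and less RNA of it per cell cannot be told apart.

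Hdac2 deletion gave 0 member calls against MCAO ipsilateral (0.0117% of all genes were called, and 2 members and 1683 genes had an unadjusted p under 0.05). Pcdhb9 stood at 0.132, 0.12 and 0 CPM in Hdac2 ECKO and 0.912, 1.06 and 0.67 CPM in MCAO ipsilateral (log2 fold change -3.34 ± 1.55, adjusted p = 0.496). The 3 Hdac2 ECKO libraries were all lower, at 4 counts or fewer each. Against sham ipsilateral 0 members passed (0% of all genes, 1 member and 1221 genes at an unadjusted p under 0.05). Pcdhb21 had the smallest p there, at 0.264, 0.241 and 0.294 CPM against 2.85, 7.22 and 8.75 CPM (-4.54 ± 1.28, unadjusted p = 0.00193, adjusted p = 0.348), and DESeq2 called it (adjusted p = 0.00642). Pcdhb19 followed, at 0.132, 0.0602 and 0.353 CPM against 0.908, 1.72 and 1.45 CPM (adjusted p = 0.731).

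Hdac2 against Ezh2 ECKO gave 0 member calls, with 0.123% of all genes called and 4 members and 1916 genes at an unadjusted p under 0.05. DESeq2 called Pcdhb16 and Pcdhb21 here, both lower in Hdac2 ECKO, at adjusted p = 0.0263 and 0.0127. Pcdhb21 had 7.17, 4.35 and 0.14 CPM in Ezh2 ECKO, so 1 of its 3 libraries was below all of Hdac2 ECKO. Ezh2 ECKO against sham ipsilateral gave 0 member calls, with 0.041% of all genes called and 3 members and 1115 genes at an unadjusted p under 0.05. DESeq2 called Pcdhb12 there (adjusted p = 0.0328).

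Genes known to control the clusters were not called. Of 18 genes for CTCF, cohesin, DNA methylation and heterochromatin, 0 passed in any comparison. In Ezh2 ECKO against MCAO ipsilateral 16 of 18 had a higher estimate (median log2 fold change 0.73, beside 0.17 over all genes), with 7 higher and 1 lower at an unadjusted p under 0.05 and a smallest adjusted p of 0.0924. Of all genes tested in that comparison, 19.2% had an unadjusted p under 0.05 and 1.46% were called. In MCAO against sham ipsilateral 2 of 18 had a higher estimate (median -0.47, beside -0.09). Ctcf was 121, 180 and 63.6 CPM in Ezh2 ECKO and 73.8, 54.6 and 83.2 CPM in MCAO ipsilateral, which overlap (adjusted p = 0.299). Smchd1 was 52.5, 49.4 and 62.3 CPM against 58, 34.2 and 57.5 CPM (adjusted p = 0.857). Of 9 genes for PRC2 and its partner deacetylases, 0 passed and 3 had a higher estimate (median -0.32).

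The nonclustered protocadherins, single genes outside the 3 clusters with no constant exons in common, gave 0 calls in either of the comparisons below. Of these genes, 2 (Pcdh1 and Pcdh12) lie within 1 Mb of the clusters. In MCAO against sham ipsilateral 1 of 11 tested had a higher estimate (median log2 fold change -0.98), and in Ezh2 ECKO against MCAO ipsilateral 10 of 11 (median 1.54, smallest adjusted p 0.0651). Both comparisons use the same MCAO ipsilateral libraries. Pcdh12, known as the vascular endothelial protocadherin, had 4.58, 2.5 and 3.80 CPM in sham ipsilateral and 0.433, 0.552 and 1.29 CPM in MCAO ipsilateral, with no overlap (log2 fold change -2.25 ± 1.09, adjusted p = 0.703). In Ezh2 ECKO it had 1.46, 0.341 and 6.15 CPM (against MCAO ipsilateral, 1.80 ± 1.07, adjusted p = 0.351).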

How the data were processed

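Counts per gene were deposited by the authors as a single table for 18 libraries. Per the submitters' processing notes, FastQC, cutadapt, STAR, featureCounts and DESeq2 were used with build mm10; versions and settings are not given in the sources used here. The table is named as normalized, but it holds whole numbers with unequal totals, and 77.3% to 89.4% of counts from 1 to 20 were even, as when both mates of a pair are counted. The values were used as unscaled counts. A total of 0 per-sample columns were left unmatched.

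Exons came from GENCODE M21 (GRCm38); the deposited feature length equalled the annotated exon length for all 56 members, so reads on shared exons could be counted for every gene of a cluster. Genes that reached 10 counts in 3 or more libraries were tested with edgeR 4.0.16 in R 4.3.3 (quasi-likelihood F-test, TMM scaling, 1 fit of 6 groups, 9 comparisons), and p-values were adjusted by Benjamini-Hochberg over all 17094 genes; a gene with an adjusted p under 0.05 was called. The test was also tried on simulated counts, with changes planted only in genes of a higher mean level than Pcdhb16. How well changes are found at its level or below was thus not checked. Levels are CPM, and the SE is the fold change over the square root of F. Alternatives used limma 3.58.1 and DESeq2 1.42.0, other scaling and filters, a replicate block, a receptor covariate, halved counts and left-out libraries. The use of own reads was added after seeing the counts. Intervals cover counting error only.

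Members and gene lists were chosen with earlier results of these data known. Named members were each called gene, the 2 of each class with the highest mean CPM, and those with the smallest p per comparison (5 for Ezh2 ECKO against MCAO ipsilateral, 2 elsewhere); Ctcf, Smchd1, Ezh2, Hdac2 and Pcdh12 were always named, and other genes of the lists only if called.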

Additional observations from a re-analysis of the deposited data

How the results depend on the processing

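The count of called clustered protocadherins in Ezh2 ECKO against MCAO ipsilateral was 1. It became 2 under the stricter filter and in DESeq2 (Pcdhb16 and Pcdhb12), and 0 with the receptor covariate, with the replicate block and without any 1 of the 6 libraries (from 0 to 0 calls). Pcdhb16 was called in 9 of 17 alternatives. DESeq2 gave 2 calls in Hdac2 against Ezh2 ECKO and 1 each in Hdac2 and Ezh2 ECKO against sham ipsilateral, and limma's voom gave 3 in MCAO against sham ipsilateral, where edgeR gave 0. The cause was not tested. Correlations of same-numbered deviations ran from -0.238 to 0.307, and in none of the 9 comparisons were all 3 over 0.1. With 3 libraries per group, these values cannot decide whether same-numbered libraries are paired. The labels do not say whether same-numbered ipsilateral and contralateral libraries came from the same mouse. The block turned Pcdhb9 to -0.04 and Pcdhb19 to 0.27 against MCAO ipsilateral, with no call.

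CPM on the unscaled library total, in place of the TMM-scaled one, moved the sham ipsilateral sums to 67.0 (beta), 1.06 (alpha) and 93.8 CPM (gamma), and the Hdac2 ECKO gamma sum to 48.1 CPM. Depth limits what can be said of the alpha cluster, which held 5 to 111 counts per library.

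Of 634 alternative log2 fold changes of the 19 named members with Ezh2 deletion, 581 kept direction and call, 3 gained a call (Pcdhb12), 8 lost one (Pcdhb16), and 42 changed sign, all without a call. On own reads, the values against MCAO ipsilateral turned to 1.56 for Pcdhga6, 0.14 for Pcdhgb4, 0.75 for Pcdhgb5, 0.73 for Pcdhga12 and 1.26 for Pcdhgc4, and against sham to 0.22 for Pcdhga6 and 0.36 for Pcdhgc3, since the shared reads are taken off. Without the 2 libraries set apart, Pcdhga12 turned to 0.17 against MCAO ipsilateral, and against sham Pcdhga6 to 0.19, Pcdhgb4 to 0.10, Pcdhgb5 to 0.13, Pcdhga12 to 0.06, Pcdhgc3 to 0.19, Pcdhgc4 to 0.08 and Pcdhb17 to 0.00. The receptor covariate gave 0.05 for Pcdhga6 and 0.05 for Pcdhgb5 against MCAO ipsilateral. Voom gave -0.81 for Pcdhb17 and -0.01 for Pcdhb21 against MCAO ipsilateral and -1.21 for Pcdhb17 against sham. Against sham, Pcdhb17 was -0.04 with no filter, and Pcdha2 was 0.07 with RLE factors and 0.07 in DESeq2.

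Leaving out 1 library gave ranges against MCAO ipsilateral of -0.54 to 0.88 for Pcdhb9, -0.32 to 1.00 for Pcdhb17, -1.03 to 0.44 for Pcdhb19 and -0.53 to 0.13 for Pcdhga12. Against sham they were -1.18 to 0.39 for Pcdha2, -1.93 to 0.18 for Pcdhb6, -0.78 to 0.56 for Pcdhb17, -0.56 to 0.18 for Pcdhga6, -0.89 to 0.09 for Pcdhgb4, -0.68 to 0.13 for Pcdhgb5, -0.60 to 0.05 for Pcdhga12, -0.71 to 0.19 for Pcdhgc3 and -0.72 to 0.08 for Pcdhgc4. The cause of these turns was not tested.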

Other observations

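The genes around the clusters were read for comparison. Of 43 genes within 1 Mb of the members, 40 were tested, and 0 were called in any of the 9 comparisons by edgeR. In Ezh2 ECKO against MCAO ipsilateral 19 of 40 had a higher estimate, with a median log2 fold change of -0.05 beside 0.17 over all genes, 1 higher and 3 lower at an unadjusted p under 0.05, and a smallest adjusted p of 0.0522. In MCAO against sham ipsilateral 20 of 40 had a higher estimate (median -0.03).

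Of 20 genes for the shedding and signalling of protocadherins (the protease ADAM10, subunits of gamma-secretase, focal adhesion kinases and the WAVE actin complex), 0 were called in any comparison. In Ezh2 ECKO against MCAO ipsilateral 9 of 20 had a higher estimate, with a median log2 fold change of -0.05, 2 higher and 3 lower at an unadjusted p under 0.05, and a smallest adjusted p of 0.0594.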
